A study of Rattus norvegicus with 24 samples.

Results

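Cytosolic ribosomal protein genes were followed in primary rat hepatocytes, the main working cells of the liver, over 8 days of culture. The members were all genes read by a probe set with a single platform symbol of the form Rpl or Rps plus a digit, or Rplp0, Rplp1, Rplp2 or Rpsa. Kinases of the Rps6k family and symbols ending in ps were left out. Of several probe sets for a gene the one with the highest mean over the 24 arrays stood for it, which gave 48 genes of 14217 in all, 33 of the large subunit and 15 of the small. The rule used names and mean brightness, and no comparison between groups.

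Every group held primary hepatocytes kept in serum-containing medium with epidermal growth factor, insulin, glucagon and hydrocortisone. Monolayer cultures sat on 1 layer of collagen gel and are described in the labels as an unstable control. Sandwich cultures received another layer of collagen gel on top. RNA came from days 1, 2, 3 and 8 counted from the laying of that layer, with 3 arrays for each culture and day, 8 groups and 24 arrays in all. No strain, animal or culture of origin is named for the replicates, so the p-values measure the spread between these arrays, which may be technical. The values are log2 levels relative to the rest of the same array, and the number of arrays limits their precision.

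Ribosomal proteins, together with ribosomal RNA, build the large and the small subunit of the ribosome that translates cytosolic mRNA. Their mRNAs are among the most abundant in most cells. Most of them begin with a short run of pyrimidines, the 5' terminal oligopyrimidine tract, through which the mTOR pathway and the binding protein Larp1 control their translation and stability. Hepatocytes make large amounts of plasma protein and hold many ribosomes.

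Runs of pyrimidines were looked for around the annotated start sites. RefSeq promoter sequences of the GRCr8 assembly were found for 43 of the 48 genes; Rpl23a, Rpl27, Rpl30, Rpl7 and Rps29 had no match. Each stretch below runs from 20 bases before the start to 10 bases after it, with its longest run of C or T in capitals. Among bright probe sets with a matched sequence, the first 5 are those with the largest decrease in sandwich culture from day 1 to day 8 and the last 3 those with the smallest, so that the sequences can be set beside the values that follow.
Rpl13a (chr1:104748904-104748933, minus strand): caagaCCTCTTCCTTTCCTaggcggctgcc
Rpl12 (chr3:36661920-36661949, plus strand): tgggcggagcaacatccgTCTTTTCggctt
Rpl14 (chr8:129163600-129163629, plus strand): cggcagggcgggCCCTCTCCCTTCTCgctg
Rps3 (chr1:163195767-163195796, minus strand): TTCCTTTCCTTTCagcggcgcgcggcagca
Rpl35a (chr11:81235012-81235041, minus strand): gcgcggcgggtcttgCCTTCCTCTTTCCgc
Rpl41 (chr7:1563488-1563517, minus strand): gaaggggcggCTCggaagtgacgacaccaa
Rpl19 (chr10:83519044-83519073, plus strand): gagcccgcgaccagcaagCTCTTTCCTTTC
Rpl26 (chr10:54109672-54109701, plus strand): gagaTCTCgtgtcaacttacagaaccggaa

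A run of at least 8 C or T on the sense strand lay within 25 bases of the start in 30 of the 43 members (69.8%), and in 19.4% of the 33469 promoters of the same length. The letters CCGGAAG, the core bound by ETS factors, stood on either strand within the 300 bases in 10 members (23.3%) and in 8.75% of all promoters. AAGATGG, the core bound by Yy1, stood there in 8 members (18.6%) and in 7.01% of all promoters. The motifs were searched separately and may overlap. In the stretches shown, the longest run had 14 bases in Rpl13a and Rpl14, 13 in Rps3 and Rpl35a, 12 in Rpl19, 7 in Rpl12, 4 in Rpl26 and 3 in Rpl41. These genes were chosen by their change, so nothing about the change can be read from the runs. In Rpl13a, Rps3, Rpl26 and Rpl41 the longest run shown lies wholly before the annotated start. Annotated starts can lie some bases from the starts used in hepatocytes, and a match is a description of letters.

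The members' probe sets fell into separate ranges of signal. In 38 of them, called bright here, the mean over all arrays lay between 12.12 and 14.01 on the log2 scale, close to the top of the array's range of 2.61 to 15.07. The other 10 lay between 3.97 and 9.96. They were Rpl7l1 (9.96), Rps4y2 (9.05), Rps27l (8.85), Rpl39 (6.88), Rpl26l1 (6.76), Rps13 (5.47), Rpl30 (4.53), Rpl39l1 (4.44), Rpl28 (4.28) and Rpl3l (3.97). The last 5 of these lay below the median of all probe sets, 5.62, where the background is unknown. Differences of these 5 describe the measured signal, background included, and not the size of a change in mRNA. The brightness of a probe set is not the abundance of its mRNA, and the boundary of 12 was chosen after the values were seen. A further 36 ribosomal probe sets, 31 of them bright, carry several symbols and are outside the rule. For that reason Rplp1, Rplp2, Rps14, Rps18, Rps19, Rps27a, Rpl10 and Rpl32, all well known members of the ribosome, are not analysed here by name.

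The arrays carried the markers of their label. Hepatocyte markers stood above the median of all probe sets in every group for 7 of 7 measured genes, with albumin (Alb) between 14.97 and 15.07. Array medians lay between 5.57 and 5.67, no pair of arrays was identical, and none stood apart within its group (r across probe sets 0.993 to 0.997). Beta-actin 3' minus 5' probe signal, a measure of RNA integrity, was 0.75 to 0.89 in monolayer and 0.81 to 1.21 in sandwich arrays, and the corresponding GAPDH range was 0.19 to 0.40 and 0.16 to 0.46.

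Ribosomal protein transcripts had their highest levels over the first 2 days and their lowest at day 8 in both cultures, and sandwich culture at day 8 was the lowest group. The median over the 48 members of the level, centred on each gene's own mean, was 0.10 ± 0.01 (SD, n = 3) in monolayer and 0.08 ± 0.03 in sandwich culture at day 1. At day 2 it was 0.09 ± 0.03 and 0.11 ± 0.02, and at day 3 it was -0.02 ± 0.03 and 0.02 ± 0.03. At day 8 monolayer arrays lay at -0.12 ± 0.05 and sandwich arrays at -0.28 ± 0.03 (log2). The 3 sandwich arrays of day 8 lay between -0.31 and -0.26, below the monolayer arrays of that day, which lay between -0.15 and -0.07. In 39 of the 48 genes, and in 37 of the 38 bright ones, the lowest of the 8 group means was that of sandwich day 8. The exception among the bright ones was Rpl21, lowest in monolayer day 8. The highest group mean was most often that of sandwich day 2, in 20 genes, or of monolayer day 1, in 13. These medians and counts are a description and carry no p-value. The lowest and highest group means were not counted over all probe sets. In RNA from whole cultures, fewer hepatocytes and less RNA per hepatocyte cannot be told apart.

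**Figure D1:**
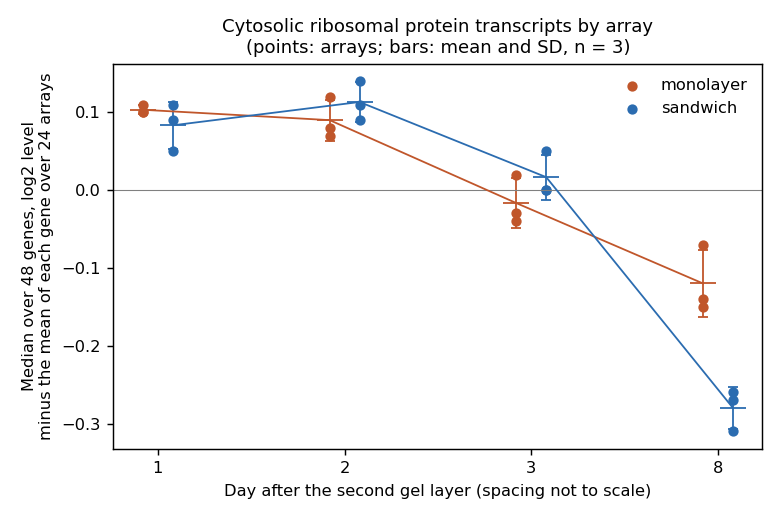
Median over the 48 ribosomal protein genes of the log2 level centred on each gene's mean (vertical axis), by day (horizontal axis), for the 24 arrays; points are arrays and bars the mean and SD of 3 arrays. The cultures overlap at day 1, and at day 8 all 3 sandwich arrays (-0.31 to -0.26) lie below all 3 monolayer arrays (-0.15 to -0.07).

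The first question was whether these transcripts differed between the sandwich and the monolayer arrays of a given day. At day 1 no member differed between the cultures by limma (adjusted p under 0.05, Benjamini-Hochberg over 31042 probe sets), with 1 at an unadjusted p under 0.05, when 1.78% of all probe sets were called. The median difference, sandwich minus monolayer, was -0.04 over the members and 0.01 over all probe sets. At day 2 no member was called either, with 1 at an unadjusted p under 0.05, against 5.83% of all probe sets, and the member median was 0.03. At day 3 the background had grown to 16.5% of all probe sets, and 1 of the 48 was called.

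That gene was Rpl39, a very small protein of the large subunit that lines the exit tunnel, read by a probe set of moderate signal. Its monolayer arrays at day 3 read 6.81, 6.87 and 6.51 (log2), and its sandwich arrays 7.28, 7.24 and 6.91. All 3 sandwich arrays were higher, by 0.41 ± 0.12 (SE; limma, adjusted p = 0.0197), a ratio of 1.33. The call was lost without monolayer replicate 3 of day 3 (0.30, adjusted p = 0.155) and without sandwich replicate 1 (0.34, adjusted p = 0.107) or 2 (0.36, adjusted p = 0.0845), by the same fit.

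At day 8 the picture differed. Of the 48 members 20 were lower in sandwich than in monolayer culture and 1 was higher, when 27.5% of all probe sets were called, 15.6% as lower and 11.9% as higher. The member median was -0.18, against 0.02 over all probe sets. The 3 sandwich arrays lay below the 3 monolayer arrays in 25 genes, as they did in 19.3% of all probe sets. All 20 lower genes were bright: 14 of the 33 of the large subunit and 6 of the 15 of the small subunit.

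Rpl13a, a large-subunit protein with a further role in a complex that silences mRNAs, differed most. Its monolayer arrays at day 8 read 12.75, 12.59 and 12.65 (log2), and its sandwich arrays 12.33, 12.06 and 12.00. The groups did not overlap, and the sandwich level was lower by 1.45-fold (log2 difference -0.54 ± 0.10, limma, adjusted p = 0.000172).

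Rpl11, which together with Rpl5 can bind the p53 regulator Mdm2 when ribosome assembly is disturbed, came next. Its monolayer arrays read 13.24, 13.19 and 13.42 (log2) and its sandwich arrays 12.85, 12.90 and 12.86. The sandwich arrays lay tightly together below all monolayer arrays, 1.33-fold lower (log2 difference -0.41 ± 0.08, limma, adjusted p = 0.00017). Rpl5 itself read 13.54, 13.49 and 13.67 in monolayer and 13.37, 13.35 and 13.41 in sandwich arrays. Its difference was smaller, -0.19 ± 0.07 (log2; limma, adjusted p = 0.0473), and so near the threshold that it was lost without most single arrays.

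Rps15, a small-subunit protein near the decoding site, read 12.37, 12.47 and 12.66 (log2) in monolayer and 12.08, 12.16 and 12.27 in sandwich arrays of day 8. Its difference was -0.33 ± 0.08 (limma, adjusted p = 0.00363). Rpl23, another large-subunit protein that can bind Mdm2, read 12.95, 13.10 and 13.22 in monolayer and 12.69, 12.74 and 12.88 in sandwich arrays, a difference of -0.32 ± 0.08 (limma, adjusted p = 0.00344). In both genes all sandwich arrays were the lower ones. Rpl18, a large-subunit protein, was lower by 1.24-fold (log2 difference -0.31 ± 0.09, limma, adjusted p = 0.0118), a call lost without monolayer replicate 3 (-0.23) or sandwich replicate 1 (-0.26) of day 8. Rps3, which lines the mRNA entry channel of the small subunit, differed by -0.29 ± 0.08 (limma, adjusted p = 0.00455).

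The other 13 lower genes had log2 differences from -0.30 in Rpl22 and Rps15a to -0.19 in Rplp0. Rplp0, the base of the stalk that recruits elongation factors and a frequent reference gene in quantitative PCR, read 13.31, 13.28 and 13.38 (log2) in monolayer and 13.16, 13.19 and 13.07 in sandwich arrays of day 8. The groups were separate, and the difference was -0.19 ± 0.07 (limma, adjusted p = 0.0459), a call also lost without most single arrays. Rpsa, a small-subunit protein also described as a laminin receptor, differed by -0.23 ± 0.07 (limma, adjusted p = 0.0198), a call lost without monolayer replicate 1 (-0.23) or 3 (-0.17) or sandwich replicate 1 (-0.22) of day 8. It has further probe sets on the array, which did not move alike: at day 8 they gave -0.39 ± 0.09 (adjusted p = 0.00106) and 0.09 ± 0.08 (adjusted p = 0.524).

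The 1 higher call was Rpl3l, the paralog of Rpl3 known from striated muscle, in a dim probe set. Its monolayer arrays at day 8 read 3.82, 3.80 and 3.42 (log2) and its sandwich arrays 4.13, 3.95 and 3.96, a difference of 0.34 ± 0.12 (limma, adjusted p = 0.0365). Without monolayer replicate 3, the lowest of these arrays, the difference was 0.20 (limma, adjusted p = 0.264). Among the members not called, Rpl12, Rps6, Rpl26, Rpl35, Rpl7a and Rpl41 had log2 differences of -0.11, -0.10, -0.06, -0.04, -0.03 and -0.02 at day 8.

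The count at day 8 moved with single arrays and with the fit. It was 10 without monolayer replicate 3 of that day and 12 without sandwich replicate 1 of that day, all of them lower and all among the 20. Beta-actin 3' minus 5' signal was 0.90 to 1.21 in the sandwich and 0.78 to 0.88 in the monolayer arrays of day 8, and with it as a covariate 9 members were called, again all lower and among the 20 (Rpl11, Rpl13a, Rpl14, Rpl19, Rpl22, Rpl23, Rpl27a, Rpl6 and Rps3). Some differences that were no longer called kept nearly their size with the covariate, such as Rpl5 (-0.21 in place of -0.19) and Rplp0 (-0.18 in place of -0.19), and others were smaller, such as Rps15 (-0.25 in place of -0.33) and Rpl18 (-0.23 in place of -0.31). The part of RNA integrity was not tested beyond these values. Centred on the brightest 10% of the other probe sets, on the array median or by quantile or cyclic loess normalization, 15 to 22 members were lower.

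**Figure D2:**
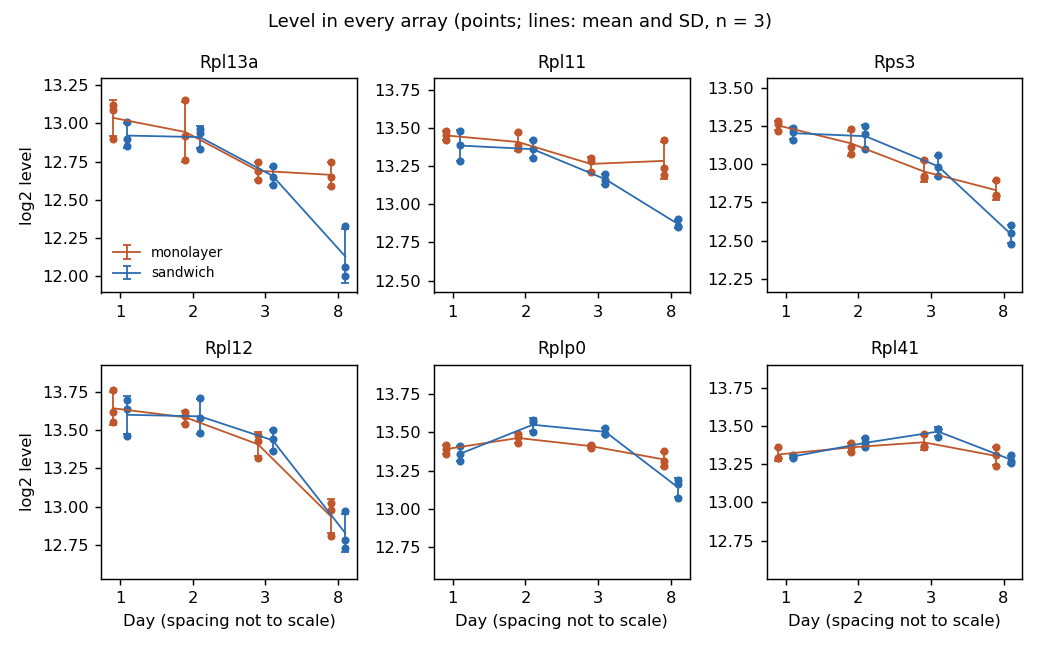
Log2 level (vertical axis) of 6 ribosomal protein genes by day (horizontal axis) in monolayer and sandwich culture; points are arrays, lines join the means and bars give the SD of 3 arrays, and all panels span the same log2 range. Rpl13a and Rpl11 are lower in sandwich culture at day 8 (differences -0.54 and -0.41), Rpl12 is low in both cultures at that day, and Rpl41 is close to level.

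The next question was how the transcripts changed with time in each culture. In monolayer culture no member changed from day 1 to day 2 (limma; none at an unadjusted p under 0.05), when 5.01% of all probe sets were called. By day 3, 5 of the 48 were lower and none higher, when 19.8% of all probe sets were called, and 16 members had an unadjusted p under 0.05. The 5 were Rpl13a, Rpl35a, Rps3, Rpl14 and Rpl4, with log2 changes from -0.35 to -0.24 and a member median of -0.15. The count was 3 without monolayer replicate 3 of day 3.

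By day 8, 24 of the 48 had fallen in monolayer culture and 1 had risen. Over all probe sets 30.8% were called, 15.8% as lower and 15.0% as higher. The member median was -0.24, against 0.00 over all probe sets, and the arrays of the 2 days did not overlap in 28 genes that were lower, as in 21.4% of all probe sets. The falls included 18 of the 33 large-subunit and 6 of the 15 small-subunit genes. The size of this fall moved with the scaling: the median ran from -0.30 with arrays centred on the median to -0.05 with cyclic loess, and it was below 0 under each. With cyclic loess 12 members fell and 4 rose (Rpl19, Rpl28, Rpl41 and Rps16). Centred on the brightest 10% of the other probe sets, which moved the median of all probe sets by 0.12, 10 fell and 1 rose, while over all probe sets 6397 were higher and 3373 lower in place of 4661 and 4894.

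Rpl12, a protein at the base of the stalk, fell most in monolayer culture. Its arrays read 13.55, 13.62 and 13.76 (log2) at day 1 and 12.81, 12.98 and 13.02 at day 8. The days were well apart, and the level fell 1.64-fold (log2 change -0.71 ± 0.09, limma, adjusted p = 9.84e-07). Rpl21, a large-subunit protein, read 12.34, 12.34 and 12.26 at day 1 and 11.88, 11.70 and 11.40 at day 8, a change of -0.65 ± 0.11 (limma, adjusted p = 6.17e-05). Its day 8 arrays were spread more widely than those of Rpl12.

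Rps4y2, a small-subunit gene related to Rps4x, read 9.18, 9.27 and 9.40 (log2) at day 1 and 8.71, 8.91 and 8.74 at day 8 (change -0.50 ± 0.09, limma, adjusted p = 0.000124). Rpl14 and Rpl35, both of the large subunit, each changed by -0.46 ± 0.08 (limma, adjusted p = 2.77e-05 and 3.69e-05). Rpl28 was the 1 member that rose. Its probe set is dim, with monolayer arrays of 3.99, 4.03 and 4.13 (log2) at day 1 and 4.53, 4.67 and 4.55 at day 8 (change 0.53 ± 0.09, limma, adjusted p = 5.4e-05). The days were separate, in a range where the background is unknown.

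In sandwich culture no member changed from day 1 to day 2 by adjusted p (4 at an unadjusted p under 0.05), when 5.81% of all probe sets were called. The member median was 0.04. Rplp0 read 13.31, 13.41 and 13.36 (log2) at day 1 and 13.50, 13.58 and 13.57 at day 2, so its arrays did not overlap although it missed the threshold. By day 3, 2 members were lower, Rps3 by 0.22 ± 0.08 (limma, adjusted p = 0.0487) and Rps13, a dim probe set, by 0.59 ± 0.11 (limma, adjusted p = 0.000478). The Rps3 call lay so near the threshold that it was lost under each of the 4 other scalings (-0.23 to -0.18), with the beta-actin covariate (-0.22), with only the groups compared (-0.22, limma, adjusted p = 0.218) and without most single arrays. The background was 14.8% of all probe sets, 7.43% as lower and 7.40% as higher, so the lower share of the members (4.17%) did not exceed it. An unadjusted p under 0.05 was found for 10 members and for 7498 of the 31042 probe sets. With 1 array left out the count of called members ran from 1 to 4.

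By day 8, 37 of the 48 had fallen in sandwich culture and none had risen. Over all probe sets 24.8% were called, 13.2% as lower and 11.6% as higher. The member median was -0.37, against 0.00 over all probe sets. Of the bright genes 34 of 38 fell, 24 of the 26 of the large and 10 of the 12 of the small subunit. The 3 arrays of day 8 lay below those of day 1 in 43 of the 48, and in 18.1% of all probe sets. Between 31 and 38 members were called with 1 of the 24 arrays left out, and the median lay between -0.41 and -0.33.

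Rpl13a fell most here too. Its sandwich arrays read 13.01, 12.90 and 12.85 (log2) at day 1 and 12.33, 12.06 and 12.00 at day 8, a fall of 1.73-fold (log2 change -0.79 ± 0.10, limma, adjusted p = 1.14e-06). Rpl12 read 13.46, 13.70 and 13.64 at day 1 and 12.73, 12.78 and 12.97 at day 8 (change -0.78 ± 0.09, limma, adjusted p = 4.05e-07). In both genes the days were separated by more than the spread within either.

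Rpl14 read 12.47, 12.54 and 12.52 (log2) at day 1 and 11.85, 11.83 and 11.75 at day 8 (change -0.70 ± 0.08, limma, adjusted p = 9.32e-08). Rps3 read 13.16, 13.24 and 13.21 at day 1, 12.98, 13.06 and 12.92 at day 3, and 12.55, 12.60 and 12.48 at day 8 (change to day 8 -0.67 ± 0.08, limma, adjusted p = 1.91e-07). The arrays of day 8 lay below those of day 3, and those of day 3 below those of day 1. Rpl35a, a large-subunit protein, fell 1.57-fold by day 8 (log2 change -0.65 ± 0.09, limma, adjusted p = 2.31e-06).

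Rpl11 fell 1.43-fold in sandwich culture, from 13.28, 13.48 and 13.39 (log2) to 12.85, 12.90 and 12.86 (change -0.51 ± 0.08, limma, adjusted p = 1.2e-05). Rplp0 fell 1.17-fold (change -0.22 ± 0.07, limma, adjusted p = 0.0167), a call lost under quantile normalization (-0.10), cyclic loess (-0.08) and centring on the brightest 10% (-0.21), and without sandwich replicate 2 of day 1 (-0.20) or replicate 3 of day 8 (-0.19). Rps6, the substrate of the kinase downstream of mTOR, read 13.45, 13.62 and 13.55 at day 1 and 13.25, 13.33 and 13.39 at day 8 (change -0.22 ± 0.08, limma, adjusted p = 0.0559). Its arrays did not overlap, yet it did not pass.

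Rpl41, which encodes one of the shortest known proteins, was close to level in both cultures. Its sandwich arrays read 13.31, 13.29 and 13.30 (log2) at day 1 and 13.31, 13.27 and 13.26 at day 8, and its monolayer arrays 13.36, 13.29 and 13.29 and then 13.31, 13.24 and 13.36. The changes were -0.02 ± 0.07 and -0.01 ± 0.07 (limma, adjusted p = 0.891 and 0.921). Cyclic loess put Rpl41 among the genes that rose in monolayer culture.

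**Figure D3:**
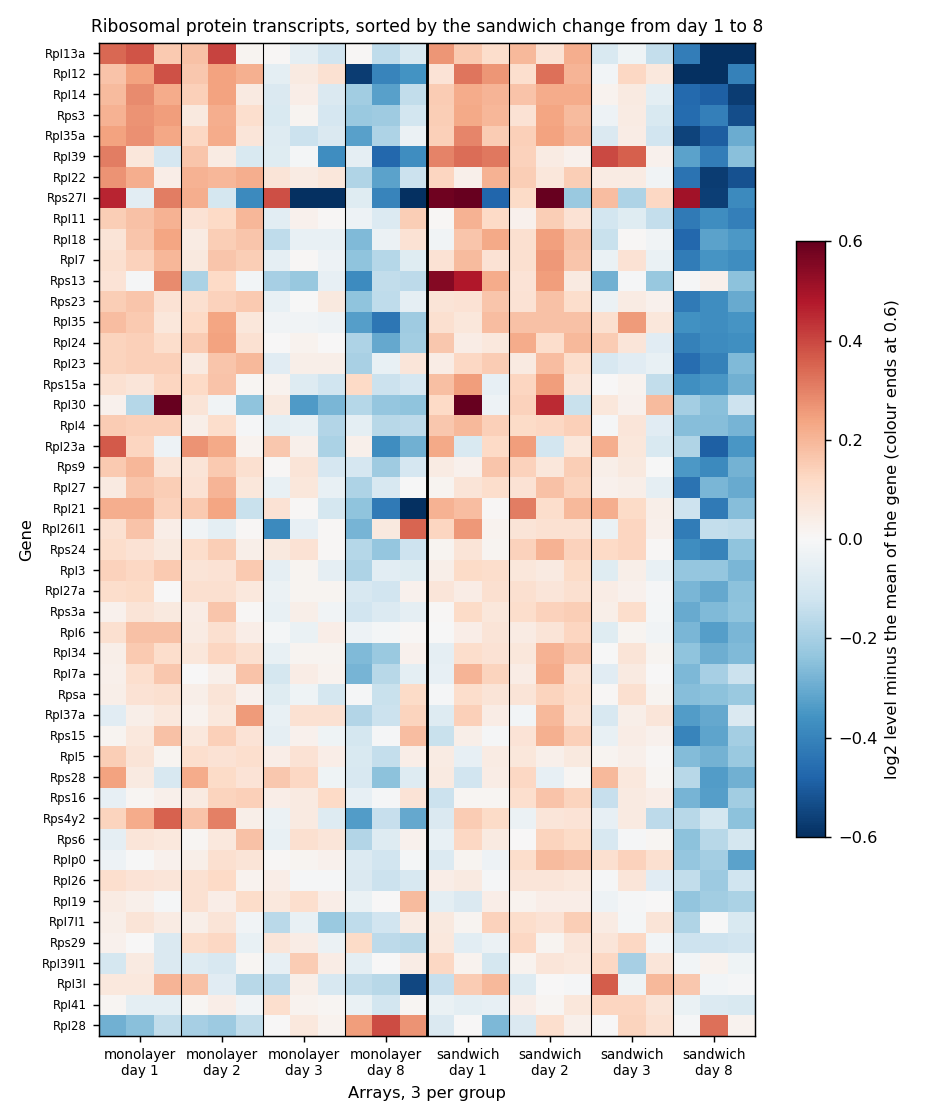
Level of the 48 ribosomal protein genes (rows, vertical axis) in the 24 arrays (columns, horizontal axis, 3 per group), as the log2 level minus the gene's mean, with colours ending at 0.6; genes are sorted by the sandwich change from day 1 to day 8. The sandwich day 8 columns are the lowest for 39 of the 48 genes by group mean, which was not counted over all probe sets.

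The changes from day 1 to day 8 rest on different arrays in the 2 cultures. Of the 48 members 22 fell in both, which is 91.7% of the 24 that fell in monolayer and 59.5% of the 37 that fell in sandwich culture. Since those 37 are already 77.1% of the members, a large overlap would arise from that share alone. The overlap over all probe sets was not counted. Rpl3l and Rps4y2 passed in monolayer culture alone. The 15 that passed in sandwich culture alone were Rpl11, Rpl18, Rpl23, Rpl26l1, Rpl27a, Rpl37a, Rpl5, Rpl6, Rplp0, Rps15, Rps15a, Rps16, Rps28, Rps3a and Rpsa. Another 9 fell in neither: Rpl19, Rpl28, Rpl30, Rpl39l1, Rpl41, Rpl7l1, Rps27l, Rps29 and Rps6.

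Passing in 1 culture does not show a difference between the cultures, which was tested as the difference of the 2 changes. The sandwich estimate lay below the monolayer estimate in 44 of 48 genes, and in 16258 of all 31042 probe sets. The median difference was -0.16 over the members against -0.01 over all probe sets, where 15.6% were called. By limma 2 members (4.17%) passed. An unadjusted p under 0.05 was found for 12 of the 48 members and for 7791 of the 31042 probe sets, a similar share. Rpl13a changed by -0.37 in monolayer and -0.79 in sandwich culture, a difference of -0.42 ± 0.14 (limma, adjusted p = 0.0472). Rpl11 changed by -0.17 and -0.51, a difference of -0.35 ± 0.11 (limma, adjusted p = 0.0301). With 1 array left out the count ran from 0 to 3, and each of these calls was lost without several single arrays. Rpl12, with -0.71 and -0.78, and Rpl35, with -0.46 and -0.48, had estimates that lay close together in the 2 cultures (differences -0.07 ± 0.13 and -0.02 ± 0.11). This contrast shares its day 8 arrays with the comparison of the cultures at day 8.

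**Figure D4:**
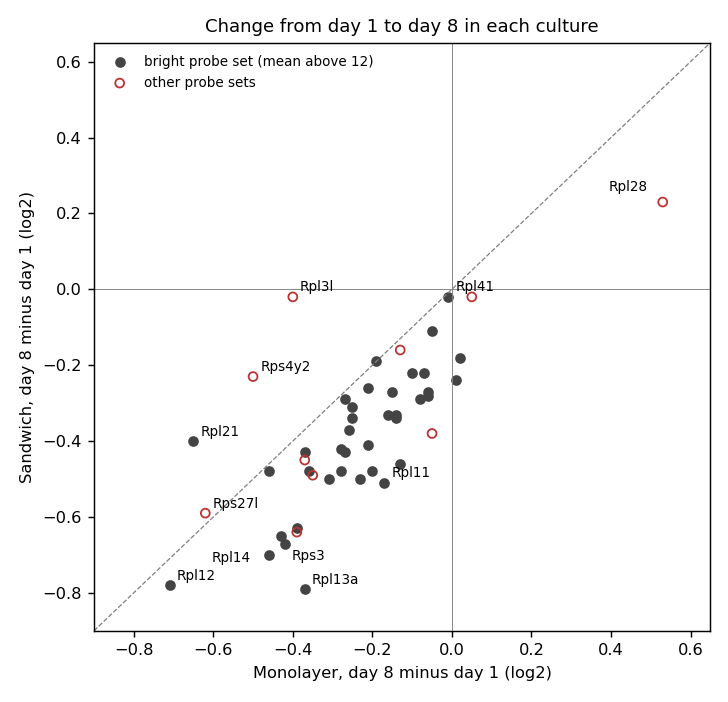
Log2 change from day 1 to day 8 in monolayer (horizontal axis) and sandwich culture (vertical axis) for the 48 genes; filled points are bright probe sets, open points the other 10, and the dashed line marks equal change. The sandwich estimate lies below the line in 44 of the 48, with Rpl21, Rps4y2, Rpl3l and Rps27l above it. Over all 31042 probe sets it was the lower one in 16258.

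Paralogs, copies related to a parent gene, were read beside their parents. Rpl26l1 was lower at day 8 in sandwich culture (log2 change -0.38 ± 0.12, limma, adjusted p = 0.0246), and its parent Rpl26 fell in both cultures by 0.19 ± 0.07 (limma, adjusted p = 0.0385 in sandwich and 0.0364 in monolayer culture). The Rpl26l1 call was lost without sandwich replicate 1 (-0.38) or 2 (-0.32) of day 1 or replicate 1 (-0.29) of day 8, and the monolayer call for Rpl26 without any of the 6 arrays compared (-0.20 to -0.18). The sandwich call for Rpl26 was lost without replicate 1 or 2 of day 1 or of day 8 (-0.20 to -0.17). Scaling mattered as well for Rpl26, whose change was -0.04 in sandwich and 0.01 in monolayer culture with cyclic loess, -0.14 in sandwich culture with quantile normalization, and -0.18 in sandwich and -0.07 in monolayer culture centred on the brightest 10%, none of which passed. Rpl3 fell by 0.25 ± 0.07 in monolayer and 0.34 ± 0.07 in sandwich culture (limma, adjusted p = 0.00668 and 0.000528). The monolayer call for Rpl3 was lost with cyclic loess (-0.05), centred on the brightest 10% (-0.13) and with only the groups compared (-0.25, adjusted p = 0.0520). The signal of the dim Rpl3l probe set was lower at day 8 in monolayer culture (-0.40 ± 0.12, limma, adjusted p = 0.0117), a call lost without replicate 3 of day 1 (-0.35) or of day 8 (-0.26) and centred on the brightest 10% (-0.27). In sandwich culture its change was -0.02 ± 0.12. Rpl7l1 passed in neither culture (-0.13 and -0.16), whereas Rpl7 fell in both (-0.31 and -0.50; limma, adjusted p = 0.00234 and 1.27e-05). The monolayer call for Rpl7 was lost with quantile normalization (-0.15), with cyclic loess (-0.12) and centred on the brightest 10% (-0.19). With the mean of the probe sets of Rpl7 neither call passed (-0.44 and -0.46, adjusted p = 0.250 and 0.256).

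Rps27l, a paralog known as a p53 target, varied widely between arrays of the same group. Its sandwich arrays read 9.43, 10.05 and 8.37 (log2) at day 1 and 9.35, 8.28 and 8.46 at day 8, a change of -0.59 ± 0.36 (limma, adjusted p = 0.278). Rpl39 fell in both cultures, by 0.39 ± 0.12 in monolayer and by 0.64 ± 0.12 in sandwich culture (limma, adjusted p = 0.0154 and 0.000228). The monolayer call for Rpl39 was lost without replicate 1 of day 1 (-0.28) or without replicate 2 (-0.30) or 3 (-0.35) of day 8, and centred on the brightest 10% (-0.27).

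The 36 ribosomal probe sets with several symbols, which the rule leaves out, gave values close to those of the members. At day 8 their median difference between the cultures was -0.19, with 15 lower and 2 higher, and 31 had fallen since day 1 in sandwich and 18 in monolayer culture. Other bright probe sets, 191 with no ribosomal symbol, had a median of 0.08 between the cultures at day 8, with 73 higher and 61 lower. Their medians from day 1 to day 8 were -0.15 in monolayer and -0.05 in sandwich culture, against -0.22 and -0.39 for the bright members. In monolayer culture 79 of the 191 (41.4%) were lower and 38 higher, against 20 of the 38 bright members (52.6%) lower and 0 higher. In sandwich culture 67 (35.1%) were lower and 51 higher, against 34 (89.5%) and 0. For this and the lists that follow, 15.6% of all probe sets were lower and 11.9% higher between the cultures at day 8. From day 1 to day 8, 15.8% were lower and 15.0% higher in monolayer culture, and 13.2% lower and 11.6% higher in sandwich culture.

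Mitochondrial ribosomal proteins, encoded in the nucleus but built into the separate ribosome of the mitochondrion, had the other direction between the cultures. At day 8, 32 of 73 were higher in sandwich culture and 1 was lower, with a median of 0.22. Mrpl57 (0.71 ± 0.08, limma, adjusted p = 2.38e-07) and Mrpl50 (0.71 ± 0.09, adjusted p = 9.81e-07) stood 1.63-fold higher. Mrpl40 (0.62 ± 0.08) and Mrps6 (0.67 ± 0.09) were higher too (adjusted p = 2.09e-06 and 3.94e-06). From day 1 to day 8, 52 of 73 fell in monolayer culture and 1 rose (median -0.46), and in sandwich culture 16 fell and 11 rose (median -0.04). So at day 8 the sandwich cultures held lower cytosolic and higher mitochondrial ribosomal protein transcripts than the monolayer cultures, by median. At day 3, 26 of 73 mitochondrial members were already higher in sandwich culture and 1 was lower. Over all probe sets 7.70% were higher and 8.84% lower at that day.

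Ribosome biogenesis factors, which process ribosomal RNA and assemble the subunits, fell with time in both cultures. By day 8, 39 of 52 measured genes had fallen in monolayer and 42 in sandwich culture, with none higher (medians -0.51 and -0.55). Between the cultures 7 were higher and 7 lower (median -0.05). That is 26.9% called, close to the 27.5% of all probe sets, so the list did not stand out there. The fall was present by day 3, with 45 lower in monolayer and 24 in sandwich culture (86.5% and 46.2%). Of the 48 cytosolic ribosomal proteins 5 and 2 were lower at that day (10.4% and 4.17%). Over all 31042 probe sets 3422 were lower in monolayer and 2305 in sandwich culture at day 3. The ribosomal proteins did not exceed these shares. Nop56, of the complex that methylates ribosomal RNA, was lower in sandwich culture at day 8 (-0.43 ± 0.09, limma, adjusted p = 0.00087), and the kinase Riok1, which acts late in small-subunit assembly, was higher (0.56 ± 0.08, adjusted p = 3.34e-06). Imp3 and Nop10, factors of ribosomal RNA processing, were higher by 0.58 ± 0.11 and 0.33 ± 0.08 (adjusted p = 0.000238 and 0.00232).

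RNA polymerase I, which transcribes ribosomal RNA, had 14 genes measured. Of these 10 fell and 1 rose in monolayer culture by day 8 (median -0.47), and 7 fell in sandwich culture (median -0.39). Between the cultures 3 were higher and 3 lower. Polr1c, a subunit shared with RNA polymerase III, was higher in sandwich culture (0.50 ± 0.11, limma, adjusted p = 0.000613) and the initiation factor Rrn3 lower (-0.36 ± 0.09, adjusted p = 0.00375). Polr1d was higher (0.27 ± 0.09, adjusted p = 0.0191) and the promoter factor Ubtf lower (-0.36 ± 0.10, adjusted p = 0.0104).

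Other mRNAs that carry the oligopyrimidine tract had medians with the same sign as the ribosomal proteins. Of 13 measured, 7 were lower in sandwich culture at day 8 and none higher (median -0.24). By day 8, 7 had fallen in monolayer culture (median -0.32), and in sandwich culture 11 had fallen and 1 had risen (median -0.53). Rack1, a scaffold protein of the small subunit whose symbol lies outside the rule, was lower by 0.44 ± 0.08 between the cultures (limma, adjusted p = 6.43e-05). Eif3f (-0.49 ± 0.07, adjusted p = 1.29e-05), Eef1g and the RNA-binding protein Hnrnpa1 (-0.72 ± 0.14, adjusted p = 0.000263) were lower as well. Their less bright probe sets did not all go that way. Day 8 group means in monolayer and sandwich culture were 8.37 and 8.48 in one of Hnrnpa1 and 7.33 and 7.13 in another. In that of Eef1g they were 6.04 and 6.23.

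Initiation factors, 32 measured, had 14 lower and 1 higher in sandwich culture at day 8 (median -0.25). They included the helicase Eif4a2 (-0.70 ± 0.08, limma, adjusted p = 8.47e-08) and Eif6, which keeps the large subunit from joining too early (-0.51 ± 0.08, adjusted p = 1.44e-05), besides Eif3f and Eif4h (-0.47 ± 0.08, adjusted p = 4.68e-05). By day 8, 18 initiation factors had fallen and 1 had risen in sandwich culture, and 11 had fallen and 2 had risen in monolayer culture. Of 13 elongation factors, some of them mitochondrial, 6 were lower and 3 higher between the cultures. The mitochondrial factor Gfm1 was higher (0.67 ± 0.11, limma, adjusted p = 1.92e-05). Eif5a2, a dim probe set (-1.52 ± 0.13, adjusted p = 6.37e-10), the kinase Eef2k (-0.79 ± 0.15, adjusted p = 0.000166) and Eef1g (-0.44 ± 0.08, adjusted p = 0.000175) were lower. With time 7 elongation factors fell in sandwich culture, and 6 fell and 2 rose in monolayer culture.

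Among 23 genes of the mTOR pathway and the Myc family, 4 were higher and 6 lower in sandwich culture at day 8. The largest difference was in Eif4ebp3, a repressor of cap-dependent initiation that mTOR inactivates. It was 2.73-fold higher in sandwich culture (log2 difference 1.45 ± 0.12, limma, adjusted p = 5.56e-10), with group means at day 8 of 8.54 ± 0.12 in monolayer and 9.99 ± 0.11 in sandwich culture (SD, n = 3). Eif4ebp1, of the same family, was also higher (0.66 ± 0.08, adjusted p = 2.32e-07), as was Deptor, an inhibitor bound to mTOR (0.67 ± 0.11, adjusted p = 4.34e-05). Mnt, a repressor that competes with Myc for Max, was lower (-0.45 ± 0.10, adjusted p = 0.000631). With time 2 of the 23 rose and 5 fell in sandwich culture, and 4 rose and 5 fell in monolayer culture.

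**Figure D5:**
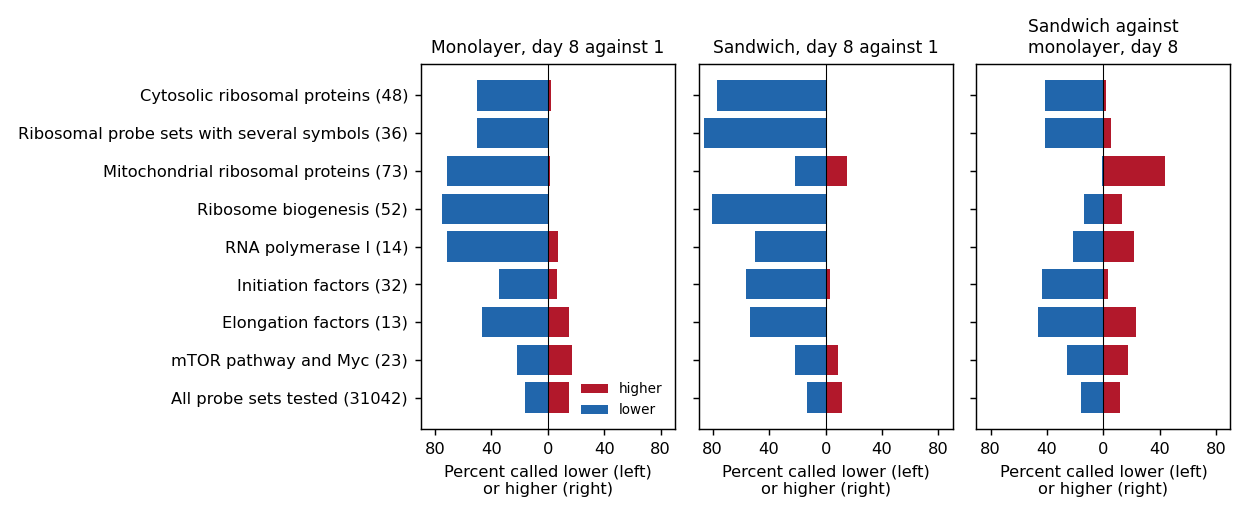
Percent of the measured genes of each list called higher (bars to the right) or lower (bars to the left) by limma at an adjusted p under 0.05, for the change from day 1 to day 8 in each culture and for the difference between the cultures at day 8; the number measured stands beside each list on the vertical axis. Of the 48 cytosolic ribosomal proteins, 24 are called lower and 1 higher with time in monolayer culture, and 37 lower in sandwich culture. Between the cultures 20 of them are called lower and 1 higher, and of the mitochondrial ones 32 of 73 are called higher and 1 lower.

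Markers of other cell types moved with time as well. The summed level of 4 measured bile duct cell markers (log2 of the sum) was 9.21 to 9.24 at day 1 and 10.13 to 10.38 at day 8 in monolayer culture, and 8.98 to 9.13 and then 9.45 to 9.73 in sandwich culture. For 6 markers of stellate cells or fibroblasts it was 8.51 to 8.68 and then 9.45 to 10.14 in monolayer culture, and 8.49 to 8.76 and then 8.96 to 9.75 in sandwich culture. The 7 hepatocyte markers summed to 16.19 to 16.38 in monolayer and 16.61 to 16.66 in sandwich culture at day 8. Between day 1 and day 8 the bile duct markers above the median of all probe sets went from 2 to 4 in monolayer culture and were 2 at both days in sandwich culture, and those of stellate cells or fibroblasts went from 3 to 5 in both. Macrophage markers, 4 of 6 above that median in every group, summed to 8.91 to 9.87 over all arrays, and no endothelial or lymphocyte marker lay above it in any group. Single genes of a list differed widely in signal: Lrat lay at 3.14 to 3.62 and Acta2 at 7.06 to 9.06 over all arrays, Col1a2 at 3.95 to 8.49, Adgre1 at 3.02 to 3.64 and C1qc at 6.67 to 8.31, Pecam1 at 3.16 to 3.56 and Kdr at 4.62 to 5.75, and Krt19 at 4.04 to 8.16. The part of these shifts in the ribosomal protein levels was not tested.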

How the data were processed

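The authors deposited 1 table of log2 probe set values from biotin-labelled cRNA on 24 Affymetrix arrays. Per the submitters' processing notes RMA and limma were used, with no role or version given; background and normalization settings are not given in the sources used here. The values were taken as deposited, and 57 control probe sets were left out of 31099. A single symbol stood beside 20826 of the 31042 tested, several beside 436 and none beside 9780. Gene identifiers, found in RefSeq for 46 of the 48 members, were used to update symbols. The table holds no detection calls. Since arrays were scaled to one another, a shift shared by most transcripts would not be seen. The RNA was primed at its 3' end, so the values depend on RNA integrity. For 3 members (Rpl13a, Rpl3l and Rps24) the name of the probe set marks a match to several transcripts of the same gene. Matches of members' probe sets to other genes were not tested.

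All 24 arrays entered 1 fit by limma 3.58.1 in R 4.3.3, in which each of the 8 groups had its own mean. Benjamini-Hochberg adjustment ran over all probe sets, separately in each of 11 comparisons, and calls are two-sided at an adjusted p under 0.05. Culture differences have monolayer subtracted from sandwich, changes have day 1 subtracted from the later day, and errors are standard errors (SE) of the fit. The script was tested on simulated data. The members and the gene lists were chosen with earlier results of these data known, so they are not independent support for a pattern. Lists are described by counts and medians. Genes named are the called members with the up to 5 largest changes each way per comparison (up to 4 for the difference of the changes), a fixed set of well-known members and paralogs, and from each list the 4 with the smallest adjusted p between cultures at day 8. Other members are named to account for them, after their values were seen. Alternatives were 4 other scalings, the mean of a gene's probe sets, a filter on dim probe sets, an intensity trend, array weights, beta-actin signal as covariate, only the groups compared, a replicate block, and leaving out each array.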

Additional observations from a re-analysis of the deposited data

Results flagged for a closer look

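Both ribosomal protein genes whose change from day 1 to day 8 differed between the cultures by the test of the difference itself (limma, adjusted p under 0.05) deserve a second look. For Rpl11 the sandwich change minus the monolayer change was -0.35 ± 0.11 (SE, adjusted p = 0.0301). For Rpl13a it was -0.42 ± 0.14 (adjusted p = 0.0472). Rpl13a fell in both cultures, by 0.37 in monolayer and 0.79 in sandwich culture, and Rpl11 passed in sandwich culture (-0.51) and not in monolayer culture (-0.17). Leaving out monolayer replicate 3 of day 8 gave -0.28 for Rpl11 (limma, adjusted p = 0.105), and leaving out monolayer replicate 3 of day 1 gave -0.35 for Rpl13a (limma, adjusted p = 0.135). No group had enough arrays for a search for single outlying arrays.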

How the results depend on the processing

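Counts are of the 48 members called, and medians are over their log2 differences.

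Sandwich against monolayer at day 1 had a median of 0.01 with cyclic loess, -0.06 centred on the array median and 0.02 centred on the brightest 10%; leaving out 1 array gave -0.04 to -0.01. At day 3 the median was -0.03 centred on the brightest 10%, and the count was 2 with the mean of a gene's probe sets (Rpl39 and Rps24) or array weights (Rpl39 and Rpl3l), and 0 with the beta-actin covariate or only the groups compared; without 1 array it was 0 to 1. At day 8 the median was -0.23 centred on the brightest 10% and -0.15 with the mean of probe sets, and the count was 9 with the covariate and 7 with only the groups compared (all lower); without 1 array the count ran from 10 to 22 and the median from -0.20 to -0.14.

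In monolayer culture the day 2 median was 0.03 centred on the brightest 10%. At day 3 the median was -0.09 with quantile normalization, -0.04 with cyclic loess, -0.19 centred on the median and -0.04 on the brightest 10%. The count was 3 with cyclic loess, 13 centred on the median, 1 on the brightest 10% (Rpl28, higher), 12 without dim probe sets, 12 with the trend, 14 with array weights, 8 with the covariate and 9 with the replicate block, and 3 to 6 without 1 array. At day 8 the median was -0.12 with quantile normalization, -0.05 with cyclic loess, -0.30 centred on the median and -0.12 on the brightest 10%, with counts of 16 for cyclic loess and 11 for the brightest 10%.

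In sandwich culture the day 2 median was 0.00 with cyclic loess. The count was 1 without dim probe sets, 1 with the trend (Rplp0, higher, in both) and 2 with array weights (Rplp0 higher, Rps13 lower). At day 3 the median was -0.02 with cyclic loess. The count was 4 with quantile normalization, 1 centred on the median, 1 on the brightest 10%, 7 without dim probe sets, 8 with the trend, 1 with only the groups compared and 5 with the replicate block, and 1 to 4 without 1 array. At day 8 the median was -0.28 with quantile normalization and -0.24 with cyclic loess, and -0.41 to -0.33 without 1 array.

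The difference of the changes gave 5 with quantile normalization, 8 with cyclic loess, 0 centred on the median, 5 on the brightest 10%, 4 without dim probe sets, 7 with the trend, 1 with array weights (Rpl11), 0 with only the groups compared and 0 to 3 without 1 array. Its median was -0.21 with cyclic loess, -0.10 centred on the median and -0.26 on the brightest 10%.

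For named genes 9650 values kept their side of the threshold, 208 lost a call and 128 gained one. Another 2 turned sign where either fit made a call. They were Rpl7 between the cultures at day 8 (0.11 with the mean of its probe sets) and Rpl26 in monolayer culture at day 8 (0.01 with cyclic loess). A turn of sign with a call in neither fit was counted among the 9650. The causes were not tested, beyond fewer arrays or probe sets in a fit. Same-numbered arrays correlated at -0.43 to 0.53 in their deviations (median 0.20), over 0.1 in 56 of 84 pairs. Of the 24 arrays 15 matched best with their own number, so part of the arrays were alike by number. The labels do not say what the numbers stand for, and the main fit leaves them out. An effect shared by number was not tested beyond the replicate block. The replicate block moved no other count of members by over 1.5 times. Over all probe sets, centring on the brightest 10% gave 1850 higher and 3361 lower between cultures at day 3 (2390 and 2743 as deposited), 4050 and 2270 in monolayer culture at day 3 (2739 and 3422), and 1891 and 3339 for the difference of the changes (2422 and 2430); centring on the median gave 3752 and 6154 in monolayer culture at day 8. With no detection calls, dim members have no known distance to background.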
